A study of Homo sapiens with 12 samples.

Results

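Short introns that border a skipped exon were examined, so that the retention of an intron could be read beside the inclusion of the exon next to it. An intron was taken when it was listed as a retained intron, was 100 to 499 bp long, and had the same chromosome, strand and both edges as an intron on either side of an exon listed as skipped. Both events had to average 10 or more reads in a library. In the comparison of siSFSWAP with siNT these limits gave 3437 of 10573 retained introns, in 1923 genes, which made 7746 pairs with 7350 of 115207 skipped exons. In the comparison of siSFSWAP/siUPF1 with siNT/siUPF1 they gave 2942 of 9649 introns, in 1744 genes, and 6455 pairs with 6160 of 110133 exons. The choice used position and read depth, not the change after knockdown. An intron could border several listed exons that differ in 1 edge (1392 of the 3437 had 1 exon, and the most was 15), so pairs are not independent of each other.

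The libraries were made from polyadenylated RNA of HEK293A-TOA cells, a line derived from human embryonic kidney cells. All 12 libraries come from cells given 1 μM TG (Thiamet-G, an inhibitor of the enzyme that removes O-GlcNAc from proteins) for 6 hr, so no group here lacks TG. The 4 groups of 3 biological replicates were siNT (non-target siRNA), siSFSWAP (40 nM of a mixture of siRNAs against SFSWAP), siNT/siUPF1 (non-target siRNA with 30 nM of siRNA against UPF1) and siSFSWAP/siUPF1 (both knockdowns), each held for 5 days. Every group is thus of 1 cell line.

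An intron leaves a transcript when the spliceosome joins the splice site at its start, the donor, to the one at its end, the acceptor. In vertebrates the sites are mostly recognised across the exon that lies between them, and only across the intron where the intron is short, so the introns on the 2 sides of a cassette exon can depend on the same recognition step. Polyadenylated transcripts that keep an intron and stay in the nucleus are said to have a detained intron. SFSWAP is the human form of the Drosophila suppressor of white-apricot, an RS-domain splicing regulator. UPF1 is the RNA helicase of nonsense-mediated decay, which removes spliced transcripts with an early stop codon.

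Throughout, the inclusion level runs from 0 to 1 and is the share of the form that keeps the intron, or includes the exon, among the 2 forms of that event, after the reads of each form were divided by its length. Reads of other splice forms of the gene do not enter it. Changes are log2 odds ratios of inclusion, knockdown over control, with the SE of the fit. They were tested with a quasi-binomial regression whose dispersion was moderated across all events with limma, and called when the p-value, adjusted by Benjamini-Hochberg over all events of the table, was 0.05 or less. The retained intron tables hold 1812787 to 3030485 reads per library, and 25938084 to 40637073 lie in skipped exon events. Libraries of a group are given in the order in which the table lists them. As a check of the labels, reads of 7 SFSWAP exon events per 100000 skipped exon reads numbered 3.08, 3.22 and 3.29 in siNT but 1.08, 1.59 and 1.21 in siSFSWAP. With UPF1 knocked down they numbered 3.05, 4.1 and 3.55 in siNT/siUPF1 and 0.987, 1.39 and 2.03 in siSFSWAP/siUPF1. Reads of 15 UPF1 events were 14.7 to 22.3 per 100000 in the 6 libraries without siUPF1, 4.13, 5.7 and 7.34 in siNT/siUPF1, and 5.64, 7.62 and 10.2 in siSFSWAP/siUPF1, so the library listed last has the most UPF1 reads in each of the siUPF1 groups.

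The introns on which the comparisons turn are printed whole from the reference genome (hg38), 5′ to 3′ on the gene's strand, with the intron in lower case and 12 bases of each bordering exon in capitals. All are introns of the coding region. Intron 9 of CDK16 (chrX:47226403-47226582, + strand, 180 bp, 52.8% GC), intron 6 of SLC25A39 (chr17:44321559-44321699, − strand, 141 bp, 54.6% GC), intron 3 of RAB24 (chr5:177302645-177302751, − strand, 107 bp, 58.9% GC) and intron 10 of NSMF (chr9:137452587-137452735, − strand, 149 bp, 71.8% GC) were kept less often after SFSWAP knockdown, beside an exon included more often. Intron 9 of DYNC1LI1 (chr3:32530329-32530460, − strand, 132 bp, 27.3% GC) went the other way and is shown for contrast.
CDK16 intron 9: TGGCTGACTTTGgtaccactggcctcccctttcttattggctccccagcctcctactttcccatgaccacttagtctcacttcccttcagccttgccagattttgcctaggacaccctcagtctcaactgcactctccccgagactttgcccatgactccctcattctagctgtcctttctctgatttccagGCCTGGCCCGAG
SLC25A39 intron 6: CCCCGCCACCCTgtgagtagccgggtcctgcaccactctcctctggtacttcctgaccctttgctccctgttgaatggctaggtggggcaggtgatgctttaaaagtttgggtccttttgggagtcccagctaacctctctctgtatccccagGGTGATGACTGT
RAB24 intron 3: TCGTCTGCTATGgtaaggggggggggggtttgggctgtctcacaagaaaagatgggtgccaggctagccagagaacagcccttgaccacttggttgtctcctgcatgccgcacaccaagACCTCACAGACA
NSMF intron 10: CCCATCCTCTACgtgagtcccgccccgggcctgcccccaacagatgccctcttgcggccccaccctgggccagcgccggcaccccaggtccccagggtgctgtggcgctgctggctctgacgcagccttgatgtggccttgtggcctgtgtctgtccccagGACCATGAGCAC
DYNC1LI1 intron 9: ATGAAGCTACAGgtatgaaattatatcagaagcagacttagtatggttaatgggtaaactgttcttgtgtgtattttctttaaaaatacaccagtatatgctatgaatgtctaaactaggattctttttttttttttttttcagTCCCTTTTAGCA
Each begins with gt. The RAB24 intron ends in aag, and of the 17 bases before its last 3, where pyrimidines (C or T) usually stand before an acceptor, 64.7% are pyrimidines. In the DYNC1LI1 intron all 17 of them are pyrimidines.

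After SFSWAP knockdown without siUPF1, most of the introns that changed were kept less. Of 2553 that could be tested, 278 fell (10.9%, in 212 genes) and 41 rose (1.61%, in 37 genes), where 9.1% of all retained introns fell and 1.33% rose. The median log2 odds ratio was −0.28 over the 2553 introns and −0.25 over all retained introns, and 64.2% of the 2553 values lay below 0. Among introns of the same length that border no listed exon, 66 of 1226 fell (5.38%) and 6 rose (0.489%), with a median of −0.18, and whether the shares differ was not tested. The other 884 introns could not be tested, 782 of them because fewer than 10 reads joined the exons across the intron and 102 because fewer than 10 reads lay in it.

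Most of these introns had a low level. The median level was 0.0687, 0.0596 and 0.0736 in the siNT libraries and 0.0452, 0.0475 and 0.0546 in the siSFSWAP libraries, and 401 introns were at 0.5 or more in siNT. Where an intron fell, the median difference in level was −0.109, and 147 of the 278 fell by at least 0.1. Where it rose, the median difference was 0.075. The levels of the 3 libraries of a group stood apart from the 3 of the other in 660 introns (25.9%), against 24.6% of all retained introns, among them 248 of the 278 that fell and 28 of the 41 that rose.

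These calls rest on sharing the dispersion across events. With limma on the log2 odds, or with each event's own dispersion, no intron passed the adjusted threshold, while 515 (limma, pseudocount 0.5) and 400 (own dispersion) of the 2553 had an unadjusted p under 0.05, against 644 in the main test. The count that fell was 179 without the siNT library listed first, 177 without the siNT library listed last and 169 without the siSFSWAP library listed first. The count that rose was 23, 26 and 26 without those 3, and 18 and 24 without the siSFSWAP libraries listed second and last.

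An intron that fell was most often next to an exon that rose or was not called. Intron and exon were both testable in 2857 pairs, of 1367 introns and 2734 exons. Of 408 pairs whose intron fell, the exon rose in 163 (40.0%, at 86 introns of 71 genes), fell in 6 (1.47%) and was not called in 239 (58.6%). Of 2386 pairs whose intron was not called, the exon rose in 419 (17.6%) and fell in 212 (8.89%). Over all skipped exons, 7.76% rose and 4.21% fell. Of 63 pairs whose intron rose, the exon fell in 21 (33.3%, at 11 introns of 11 genes), rose in 5 and was not called in 37. The exon's median log2 odds ratio was 1.77 beside an intron that fell (1.76 when groups without a read of 1 form are set at a bound of 3 reads), −1.18 beside one that rose and 0.53 beside one not called.

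Across the 2857 pairs, Spearman's rho of the intron and exon log2 odds ratios was −0.47, and 2072 pairs (72.5%) had opposite signs. With 1 exon per intron rho was −0.48 over 1367 pairs. The points are not independent, since the 2 events of a pair are counted in the same libraries and the reads that join the exon to its neighbour across the intron count against the intron and for the exon. Inclusion of the exon was therefore also counted without those reads, which left 1647 pairs, for which rho was −0.39, against −0.43 with all reads. Among them, 99 of 99 exons called higher beside an intron that fell stayed above 0 (median 2.79, against 3.03 with all reads) and 11 of 12 called lower beside an intron that rose stayed below 0. These exons were chosen by their call with all reads, and the unshared reads are a part of those reads. The sign was thus largely set by the choice and is no separate evidence. No pair passed both calls with limma or with each event's own dispersion. Too few unshared reads were left to read the exon apart from the intron in CDK4, ISYNA1, DYNC1LI1, RPL24, RPS24 and HMGN2 of the genes named by the rule, and with siUPF1 in DDX23, STUB1, AUP1, MAF1, ISYNA1, SNHG1 and RPS24. The 163 pairs became 74 with 1 event kept per intron and exon. Left out 1 at a time, 4 libraries moved the 163 by over 1.5 times, to 100 and 65 (siNT listed first and last), and 65 and 64 (siSFSWAP listed first and second). The 21 became 10, 10, 6, 7 and 4 without these 4 libraries and the siSFSWAP library listed last, in that order, and 8 when the groups also had to stand apart.

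**Figure D1:**
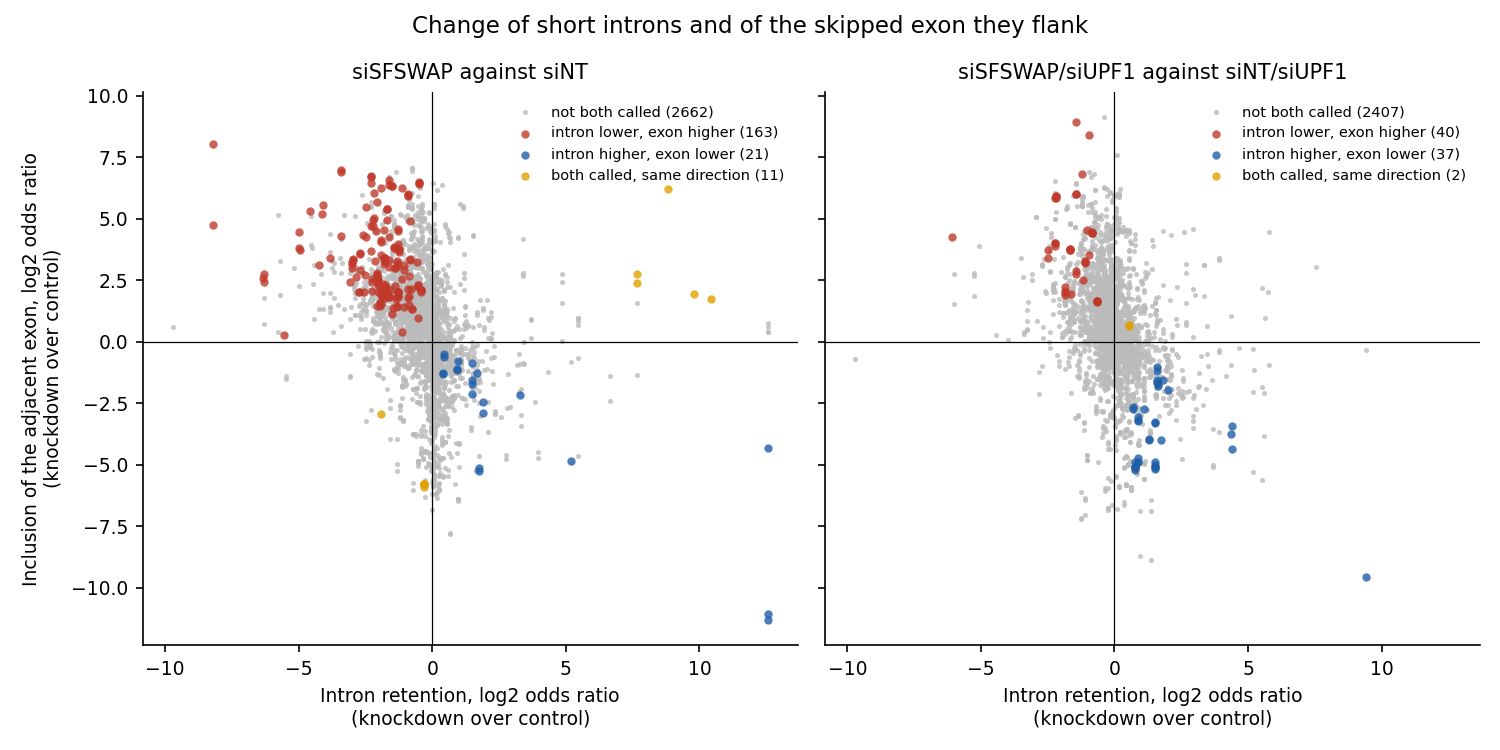
Exon change against intron change for each tested pair of a short retained intron and a skipped exon beside it, both as log2 odds ratios of inclusion (siSFSWAP over siNT on the left, siSFSWAP/siUPF1 over siNT/siUPF1 on the right). Coloured points have both events called, and most of them lie where intron and exon have opposite signs, 163 pairs with the intron lower and exon higher and 21 the reverse on the left, and 40 and 37 on the right.

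The place of the exon was also recorded. Of pairs with an intron that fell, the exon rose in 85 of 180 (47.2%) when it came after the intron and in 78 of 228 (34.2%) when it came before it. Exons whose length was a multiple of 3, which can be skipped without a shift of the reading frame, rose in 57 of 158 such pairs (36.1%), and the other exons in 106 of 250 (42.4%). In 215 cases both introns of 1 exon were tested. Both fell in 14, both rose in 0, 1 fell while the other was not called in 54, and the log2 odds ratios of the 2 introns had the same sign in 147 (68.4%, Spearman's rho 0.41). Of the paired exons, 557 rose (20.4%) and 229 fell (8.38%), their median log2 odds ratio was 0.71 against 0.27 over all skipped exons, and their median siNT level was 0.887 against 0.768.

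The genes with an intron that fell and an exon that rose included both kinases named by the rule used here. CDK16, a PCTAIRE cyclin-dependent kinase, kept intron 9 at levels of 0.166, 0.0982 and 0.175 in siNT and 0.0643, 0.0556 and 0.0497 in siSFSWAP (log2 odds ratio −1.39 ± 0.21, adjusted p 3.75e-05). The exon before it (chrX:47226279-47226402) was included at 0.81, 0.91 and 0.705, and then at 0.979, 0.973 and 0.97 (3.01 ± 0.43, adjusted p 3.79e-09). The groups did not overlap for either event, and the exon change was 3.02 without the shared reads. CDK4, the cyclin D-dependent kinase of the G1 phase, kept intron 2 (chr12:57751343-57751499) at 0.0406, 0.0426 and 0.0483 in siNT and 0.0146, 0.0177 and 0.0251 in siSFSWAP (−1.27 ± 0.25, adjusted p 0.000687). The exon before it rose from 0.883, 0.885 and 0.923 to 0.96, 0.963 and 0.989 (1.86 ± 0.48, adjusted p 0.00178). For CDK4 the inclusion reads of the exon are nearly all the shared reads, so the exon could not be read apart from the intron.

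SLC25A39 and IDH3G, which both encode mitochondrial proteins, had introns at low level. The intron of SLC25A39, a carrier of the inner mitochondrial membrane needed for glutathione import, was kept at 0.0585, 0.0204 and 0.039 in siNT and 0.00537, 0.00318 and 0.00821 in siSFSWAP (−2.84 ± 0.62, adjusted p 0.000788). The exon before it (chr17:44321700-44321767) was included at 0.848, 0.964 and 0.851, and then at 0.984, 0.989 and 0.966 (2.65 ± 0.64, adjusted p 0.000529). Both events stood apart between groups, with the siNT library listed second nearest to siSFSWAP. IDH3G encodes a regulatory subunit of mitochondrial isocitrate dehydrogenase, and its intron 7 (chrX:153787598-153787822) was kept at 0.056, 0.0436 and 0.0624, and then at 0.0183, 0.0128 and 0.0255 (−1.63 ± 0.35, adjusted p 0.00155). Its exon after the intron was skipped by 17, 7 and 15 reads in siNT and by 0, 0 and 0 in siSFSWAP (adjusted p 0.000112), while its inclusion reads were 278, 332 and 317, and then 382, 428 and 324.

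RAB24, a small GTPase linked to autophagy, had the largest drop of the 8 on the log2 odds scale. Its intron was kept at 0.274, 0.179 and 0.269 in siNT and 0.00757, 0.0241 and 0.0128 in siSFSWAP (−4.58 ± 1.16, adjusted p 0.00116), from 11, 5 and 13 intron reads that became 1, 2 and 1. The exon before it was included at 0.479, 0.766 and 0.584, and then at 1, 1 and 0.948 (adjusted p 4.43e-07), and its skipping reads went from 26, 9 and 21 to 0, 0 and 4. The groups did not overlap for either event, although the counts behind the intron are small. NSMF, a synapse-to-nucleus signalling factor, kept intron 10 at 0.0462, 0.0454 and 0.0614, and then at 0.0154, 0.0211 and 0.031 (−1.28 ± 0.27, adjusted p 0.00155). Its exon 11 after the intron (chr9:137452553-137452586) was skipped by 17, 16 and 33 reads and then by 3, 2 and 1 (3.97 ± 0.97, adjusted p 1.44e-05).

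In ISYNA1 and NOP56 the exon was at low level in siNT. ISYNA1, the inositol-3-phosphate synthase, kept intron 5 (chr19:18436480-18436683) at 0.479, 0.336 and 0.766 in siNT and at 0.168, 0.26 and 0.24 in siSFSWAP (−1.77 ± 0.38, adjusted p 0.00167), and its exon before the intron rose from 0.285, 0.256 and 0.121 to 0.665, 0.505 and 0.561 (2.3 ± 0.5, adjusted p 0.000366). NOP56, a core protein of the box C/D snoRNPs that methylate rRNA, kept an intron at chr20:2657219-2657372 at 0.901, 0.866 and 0.84, and then at 0.535, 0.549 and 0.629 (−2.27 ± 0.3, adjusted p 1.67e-06). The NOP56 exon after it was rare, at 0.00495, 0.00846 and 0.00516, and then 0.0301, 0.0282 and 0.0204 (2.06 ± 0.25, adjusted p 3.2e-11), and its change was 1.23 without the shared reads. The level of the NOP56 intron is set only against reads that splice to this rare exon, 14, 28 and 30 in siNT, and not against the 1990, 2848 and 3036 reads that skip the exon, so it is not the share of all NOP56 transcripts that keep the intron. The 8 introns and exons kept their calls without any 1 of the libraries.

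**Figure D2:**
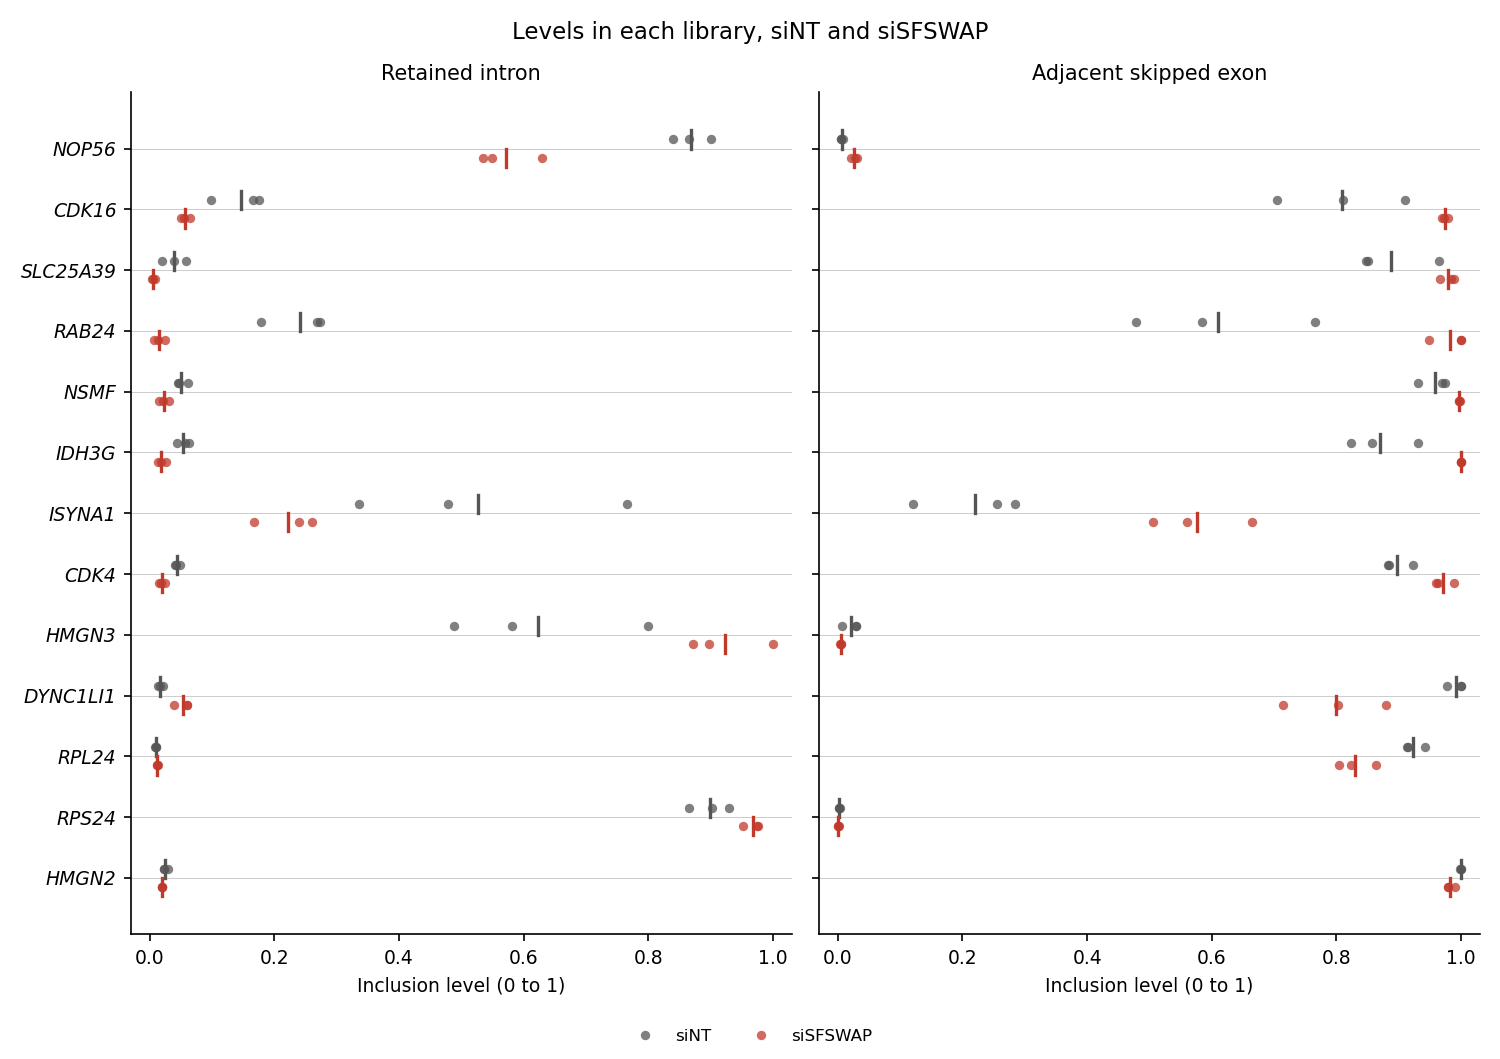
Inclusion level (0 to 1) of the intron and of its paired exon in each library, siNT and siSFSWAP, for 13 genes named by the fixed rule, with bars at the group means. The upper genes have lower introns and higher exons after knockdown, and HMGN3, DYNC1LI1, RPL24 and RPS24 have higher introns and lower exons, while both events of HMGN2 are lower.

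Few genes had an intron that rose beside an exon that fell, and their calls rest on small or rare changes. DYNC1LI1, a light intermediate chain of the dynein motor, kept its intron at 0.0218, 0.0163 and 0.013 in siNT and at 0.0597, 0.0393 and 0.0604 in siSFSWAP (1.73 ± 0.53, adjusted p 0.0234), and skipping reads of the exon before it went from 0, 2 and 0 to 17, 12 and 28 (adjusted p 2.52e-05). RPL24, of the large ribosomal subunit, kept intron 4 at 0.00971, 0.00953 and 0.0087, and then at 0.0118, 0.0118 and 0.0128 (0.39 ± 0.12, adjusted p 0.0291), and its exon after the intron fell from 0.913, 0.942 and 0.915 to 0.823, 0.864 and 0.805 (−1.31 ± 0.16, adjusted p 4.34e-10). The groups stood apart in both genes, by more in the exon than in the intron. The RPS24 intron (small ribosomal subunit, chr10:78037305-78037438) rose from 0.866, 0.902 and 0.93 to 0.976, 0.952 and 0.974 (1.69 ± 0.41, adjusted p 0.00424), beside an exon of 3 bases included at under 0.004 in every library (−1.25 ± 0.42, adjusted p 0.0305). The reads that splice out this intron, 41, 36 and 28 and then 10, 21 and 13, are largely those that include the exon, 36, 29 and 22 and then 9, 19 and 12, so both changes rest on nearly the same reads. The level of the RPS24 intron leaves out the 11373, 14549 and 9934 reads that skip the exon in siNT. It is thus not the share of all RPS24 transcripts that keep the intron. The HMGN3 intron (a nucleosome-binding protein, chr6:79201727-79202055) rose from 0.581, 0.489 and 0.799 to 0.872, 1 and 0.898 (3.27 ± 1.2, adjusted p 0.0224), beside an exon that fell by 2.16 on the log2 scale (adjusted p 0.00104, and −1.42 without the shared reads). The reads that splice out the HMGN3 intron went from 8, 21 and 5 to 2, 0 and 2. Its level leaves out the 396, 607 and 687 reads that skip the exon in siNT, so it is not the share of all HMGN3 transcripts that keep the intron. Leaving out 1 library ended the call of the HMGN3 intron (adjusted p 0.0518, 0.123 and 0.184 without siNT listed first, siNT listed second and siSFSWAP listed second), of the DYNC1LI1 intron (0.127, 0.0971 and 0.0775 without siNT listed last, siSFSWAP listed first and siSFSWAP listed last), of the RPL24 intron (0.0556 and 0.134 without siNT listed first and last, and 0.067, 0.0652 and 0.109 without the siSFSWAP libraries in order) and of the RPS24 exon (0.176 without siNT listed first, and 0.126, 0.0526 and 0.111 without the siSFSWAP libraries in order).

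Pairs that moved the same way came from 4 genes. Of 6 pairs in which both fell, 5 were of HMGN2, another nucleosome-binding protein, and 1 was of SF1, the branchpoint-binding protein. The HMGN2 intron 2 (chr1:26473528-26473702) went from 0.0233, 0.0287 and 0.0233 to 0.0196, 0.0205 and 0.0204 (−0.32 ± 0.1, adjusted p 0.0361), and the exon before it gained skipping reads, from 0, 0 and 1 to 40, 18 and 44 (adjusted p 1.41e-05). The intron call was lost without siNT listed second (adjusted p 0.221) or without a siSFSWAP library (0.116, 0.0731 and 0.0617 in order). Of 5 pairs in which both rose, 4 were of PTMS (parathymosin) and 1 of HNRNPA1. SF1, PTMS and HNRNPA1 were singled out after their values were seen. In PTMS and HNRNPA1 the libraries of 1 group disagreed, with the PTMS intron at chr12:6770000-6770174 at 1, 0.843 and 0.62 in siNT and 1 in all siSFSWAP libraries, and the HNRNPA1 intron at chr12:54282663-54282799 at 1, 0.34 and 1 in siNT and 1 in all siSFSWAP libraries, so that the groups overlapped.

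In 177 of the introns called with at least 30 reads per library and groups apart, no exon beside them was called. Exons that could not be tested count here as not called, as for PIEZO1 and POLD1 below. Of the 7746 pairs, 3460 had a tested intron and an exon that could not be tested. For such introns it cannot be said whether the exon changed. The 4 with the largest fall were in FAM173A (a lysine methyltransferase), WDR90 (a centriole protein), POLD1 (the catalytic subunit of DNA polymerase delta) and PIEZO1 (a mechanosensitive ion channel), all short, GC-rich coding introns. Intron 41 of PIEZO1 (chr16:88720284-88720384, 67.3% GC) was kept at 0.79, 0.442 and 0.727 in siNT and at 0.28, 0.213 and 0.266 in siSFSWAP (−2.48 ± 0.49, adjusted p 0.000691), and the exon before it had 1 skipping read in all 6 libraries. The POLD1 intron 21 went from 0.698, 0.377 and 0.658 to 0.0676, 0.165 and 0.288 (−2.82 ± 0.65, adjusted p 0.00247), and the exon after it had 8 skipping reads in all. The WDR90 intron 39 went from 0.61, 0.473 and 0.659 to 0.0881, 0.284 and 0.12 (−2.78 ± 0.63, adjusted p 0.00228), beside an exon with no clear direction (−0.18 ± 0.81, adjusted p 0.926). The FAM173A intron 3 went from 0.564, 0.649 and 0.451 to 0.208, 0.0223 and 0.126 (−3.1 ± 0.79, adjusted p 0.00504). The exon after it was included at 1, 0.725 and 1 in siNT and at 0.702, 0.725 and 0.841 in siSFSWAP. Its estimate was thus in the same direction as the intron, but it was not called (−1.38 ± 1.41, adjusted p 0.549) and the groups overlapped.

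The 4 introns with the largest rise and no called exon beside them were in RPL18, LIN37 (a subunit of the DREAM complex), the readthrough RPL17-C18orf32 and NSMF. The exon taken beside the intron could not be tested in RPL18, RPL17-C18orf32 and NSMF. All 4 lost their call without 1 of the libraries, with adjusted p of 0.0858 and 0.0779 for RPL18 (without siSFSWAP listed first and second), 0.232, 0.0984 and 0.148 for LIN37 (siNT listed last, siSFSWAP listed second and last), 0.0556, 0.119 and 0.0791 for RPL17-C18orf32 (siNT listed first, siSFSWAP listed second and last) and 0.0999, 0.104 and 0.0894 for NSMF (siNT listed last, siSFSWAP listed second and last). The RPL18 intron (chr19:48617451-48617790) rose from 0.366, 0.368 and 0.325 to 0.882, 1 and 0.759 (3.57 ± 1.28, adjusted p 0.0156), next to an exon at 0.999 or more in every library. It was spliced out in 9, 12 and 15 reads in siNT and in 1, 0 and 2 in siSFSWAP. Its intron reads were 23, 31 and 32, and then 33, 24 and 28. The exon beside it had 7196, 7831 and 7128 inclusion reads in siNT, so the level is not the share of all RPL18 transcripts that keep the intron. The longer NSMF intron, chr9:137452436-137452735 with 300 bp, encloses exon 11. The reads that splice it out, 17, 16 and 33 in siNT and 3, 2 and 1 in siSFSWAP, are the reads that skip exon 11, so its rise is a second count of the exon's rise. The LIN37 intron (chr19:35752834-35753086) also encloses listed exons, of which 2 forms rose (4.18, adjusted p 0.000148, and 4.19, adjusted p 0.000623). Of the tested introns 39 enclose a listed exon in this way, and without them 274 introns fell and 37 rose, a count added after seeing the data.

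With UPF1 knocked down, fewer introns passed the test after SFSWAP knockdown, and the same direction was the more frequent. Of 2166 introns tested, 63 fell (2.91%, in 58 genes) and 23 rose (1.06%, in 17 genes), where 2.59% of all retained introns fell and 0.979% rose. The median log2 odds ratio was −0.082, against −0.065 over all retained introns. The median level was 0.0571, 0.0701 and 0.0594 in siNT/siUPF1 and 0.051, 0.0589 and 0.0548 in siSFSWAP/siUPF1. The groups stood apart in 417 introns (19.3%, against 18.1% of all). Introns of the same length with no listed exon fell in 17 and rose in 4 of 1145. With limma 0 fell and 1 rose (280 had an unadjusted p under 0.05 with a pseudocount of 0.5, against 385 in the main test), and with each event's own dispersion none was called (215 with an unadjusted p under 0.05). Without the siNT/siUPF1 library listed last, 114 fell and 51 rose. Without the siSFSWAP/siUPF1 libraries in order, 32, 37 and 31 fell, and 14, 15 and 15 rose.

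The opposite movement of intron and exon was again the frequent one among called pairs. In 2486 pairs, of 1222 introns and 2394 exons, 115 had an intron that fell, and their exon rose in 40 (34.8%, at 17 introns of 16 genes), fell in 0 and was not called in 75. Of 64 pairs whose intron rose, the exon fell in 37 (57.8%) and rose in 2, both of OAZ1, a gene singled out after its values were seen. Among the 2307 pairs whose intron was not called the exon rose in 13.8% and fell in 7.28%, and over all skipped exons 4.05% rose and 3.47% fell. The exon's median log2 odds ratio was 2.0 beside an intron that fell, −2.26 beside one that rose and 0.51 beside one not called. Spearman's rho over the pairs was −0.43, and −0.35 over the 1423 pairs with unshared reads (−0.39 with all reads). In those, 25 of 26 exons called higher beside an intron that fell stayed above 0, and 16 of 16 called lower beside one that rose stayed below 0. Here too the exons were chosen by their call with all reads, which largely set the sign. The 40 pairs became 16 with 1 event per intron and exon, 88 without siNT/siUPF1 listed last, and 16, 23 and 24 without the siSFSWAP/siUPF1 libraries in order. The 37 became 12 with 1 event each, 23 without siNT/siUPF1 listed first, and 19, 20 and 22 without the siSFSWAP/siUPF1 libraries in order.

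RNA helicases and a protein quality control factor were among the genes with a lower intron and higher exon. DDX23, the helicase of the U5 snRNP, kept intron 7 (chr12:48837394-48837523) at 0.0805, 0.103 and 0.092 in siNT/siUPF1 and at 0.0395, 0.0486 and 0.0455 in siSFSWAP/siUPF1 (−1.12 ± 0.23, adjusted p 0.0041), and the exon before it rose from 0.781, 0.69 and 0.904 to 0.971, 0.991 and 0.957 (3.3 ± 0.67, adjusted p 4.22e-06), although its inclusion reads are nearly all the shared reads. DDX41, a helicase of the late spliceosome, kept intron 5 (chr5:177515822-177515928) at 0.176, 0.282 and 0.18, and then at 0.0361, 0.0652 and 0.0627 (−2.23 ± 0.38, adjusted p 0.00035), and the exon after it rose from 0.563, 0.439 and 0.769 to 0.976, 0.897 and 0.983 (4.01 ± 1.05, adjusted p 7.78e-05). STUB1, the ubiquitin ligase CHIP, kept intron 3 (chr16:681604-681792) at 0.0988, 0.0967 and 0.0459, and then at 0.0203, 0.0279 and 0.0252 (−1.66 ± 0.27, adjusted p 0.000324), and the exon after it rose from 0.865, 0.774 and 0.943 to 1, 0.974 and 0.994 (3.76 ± 0.74, adjusted p 2.05e-07). In all these exons the siNT/siUPF1 library listed last was the nearest to siSFSWAP/siUPF1, and it is the library of its group with the most UPF1 reads. The part of the UPF1 level in this was not tested.

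In AUP1 and CDK16 the exon levels in siNT/siUPF1 lay between 0.249 and 0.793. AUP1, a lipid droplet and endoplasmic reticulum protein, kept intron 6 (chr2:74528007-74528247) at 0.53, 0.562 and 0.66 in siNT/siUPF1 and at 0.283, 0.343 and 0.383 in siSFSWAP/siUPF1 (−1.43 ± 0.28, adjusted p 0.00283). The exon before it had 26, 77 and 32 skipping reads in siNT/siUPF1 and 0, 0 and 0 in siSFSWAP/siUPF1 (adjusted p 1.76e-10), and 8, 1 and 8 in siNT. The CDK16 intron went from 0.0996, 0.141 and 0.0957 to 0.0406, 0.0679 and 0.0771 (−0.86 ± 0.21, adjusted p 0.0194), and the exon before it from 0.482, 0.461 and 0.793 to 0.967, 0.955 and 0.978 (4.46 ± 0.54, adjusted p 1.19e-16). The CDK16 intron was not called without siNT/siUPF1 listed second (adjusted p 0.124) or without siSFSWAP/siUPF1 listed first or second (0.12 and 0.0756). Of the other genes named without UPF1, NOP56 (−1.87 ± 0.28, adjusted p 0.000121), ISYNA1 (−1.85 ± 0.4, adjusted p 0.00578) and NSMF intron 10 (−1.23 ± 0.34, adjusted p 0.0353) fell here too, each beside an exon that rose, whereas for RAB24 (−0.99 ± 1, adjusted p 0.741), SLC25A39 (−1.24 ± 0.64, adjusted p 0.337), IDH3G (−0.52 ± 0.52, adjusted p 0.735) and CDK4 (−0.73 ± 0.31, adjusted p 0.218) the intron was not called. The exons of SLC25A39 (2.18 ± 0.78, adjusted p 0.0343) and RAB24 (adjusted p 0.0052) still rose. ISYNA1 lost its intron call without siSFSWAP/siUPF1 listed first (adjusted p 0.0518) and its exon call without the one listed last (0.0907).

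MAF1, the repressor of RNA polymerase III, completed the 8. Its intron (chr8:144106242-144106342) was kept at 0.314, 0.349 and 0.168 in siNT/siUPF1 and at 0.0461, 0.0611 and 0.0762 in siSFSWAP/siUPF1 (−2.48 ± 0.58, adjusted p 0.00783), and the exon before it rose from 0.443, 0.586 and 0.6 to 0.94, 0.936 and 0.954 (3.74 ± 1.25, adjusted p 0.00608). Here too the inclusion reads of the exon are nearly all the shared reads. Neither was called without siSFSWAP/siUPF1 listed second (adjusted p 0.0675 for the intron and 0.0547 for the exon).

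Of the 23 introns that rose with UPF1 knocked down, 2 lie in the coding region of a MANE transcript, the transcript that RefSeq and Ensembl annotate alike, and 4 genes were named beside an exon that fell. ZDHHC6, a palmitoyltransferase of the endoplasmic reticulum, had an intron (chr10:112433282-112433540) at 0.453, 0.375 and 0.637 in siNT/siUPF1 and at 0.975, 0.902 and 0.968 in siSFSWAP/siUPF1 (4.39 ± 1.01, adjusted p 0.000216), and its exon before the intron fell from 0.113, 0.184 and 0.084 to 0.00456, 0.0114 and 0.00526 (−4.36 ± 0.77, adjusted p 2.42e-10). The reads that splice out the ZDHHC6 intron went from 59, 71 and 21 to 1, 4 and 1. Its intron reads were 177, 154 and 133, and then 143, 133 and 111. The level leaves out the 401, 304 and 259 reads that skip the exon in siNT/siUPF1, so it is not the share of all ZDHHC6 transcripts that keep the intron. SNHG1 and GAS5 host snoRNAs in their introns, and their spliced RNAs are known targets of nonsense-mediated decay. The SNHG1 intron (chr11:62854939-62855132) went from 0.106, 0.0822 and 0.209 to 0.357, 0.283 and 0.309 (1.74 ± 0.27, adjusted p 0.000257), and its exon after the intron from 0.872, 0.886 and 0.784 to 0.226, 0.265 and 0.375 (−4 ± 0.23, adjusted p 2.08e-27). Without siUPF1 that exon also fell, from 0.672, 0.735 and 0.821 to 0.204, 0.353 and 0.268 (−3.08 ± 0.25, adjusted p 5.96e-18), while the intron was not called (0.55 ± 0.21, adjusted p 0.0954). The GAS5 intron (chr1:173865283-173865470) went from 0.0669, 0.0576 and 0.15 to 0.172, 0.208 and 0.218 (1.53 ± 0.24, adjusted p 0.000339), and was at 0.168, 0.179 and 0.201 in siNT and 0.182, 0.186 and 0.188 in siSFSWAP (0.011 ± 0.13, adjusted p 0.979). Its exon after the intron fell by little in level, from 0.998, 0.998 and 0.999 in siNT/siUPF1 to 0.987, 0.987 and 0.98 in siSFSWAP/siUPF1 (−3.26 ± 0.76, adjusted p 0.000494). In the intron and exon of SNHG1 and in the intron of GAS5, the siNT/siUPF1 library listed last again had the level nearest to the other group. RPS24 repeated its rise (2.01 ± 0.45, adjusted p 0.00464) with an exon that fell by 1.95 on the log2 scale (adjusted p 0.00301), and its intron was not called without siNT/siUPF1 listed first (0.0504).

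Beside no called exon, the largest falls were in TUBG2 (a gamma-tubulin), R3HDM4, AHRR (the aryl hydrocarbon receptor repressor) and MCAM (a cell adhesion molecule). In each of these genes the exon taken beside the intron could not be tested, as too few reads skipped it. AHRR intron 9 (chr5:432525-432805) was kept at 0.445, 0.466 and 0.27 in siNT/siUPF1 and at 0.065, 0.0899 and 0.102 in siSFSWAP/siUPF1 (−2.73 ± 0.41, adjusted p 0.000146), and at 0.485, 0.163 and 0.439 in siNT and 0.0177, 0.0611 and 0.0954 in siSFSWAP (−2.92 ± 0.53, adjusted p 0.000242). TUBG2 intron 7 went from 1, 0.799 and 0.622 to 0.299, 0.174 and 0.366 (−3.35 ± 0.65, adjusted p 0.00187, and 0.0908 without siSFSWAP/siUPF1 listed second). R3HDM4 fell by 3.27 on the log2 scale (adjusted p 0.00441, and 0.061 without siSFSWAP/siUPF1 listed last). MCAM fell by 2.16 (adjusted p 0.0443), and leaving out any of 5 of the 6 libraries ended its call, with adjusted p of 0.0753 to 0.26 (the exception was siNT/siUPF1 listed last). The largest rises were in NSMF (the 300-bp intron around exon 11), RPL13A, PRKCSH (a subunit of glucosidase II) and NACA (a subunit of the nascent polypeptide-associated complex). The RPL13A intron (chr19:49489913-49490231), which holds the snoRNA gene SNORD32A, went from 0.364, 0.264 and 0.424 to 0.636, 0.601 and 0.682 (1.75 ± 0.29, adjusted p 0.000338) and rose without siUPF1 too, from 0.484, 0.579 and 0.474 to 0.709, 0.642 and 0.742 (1.17 ± 0.27, adjusted p 0.00359). A form of this intron that starts at 49489923 and has the same end was not called. Its mean level was 0.0266 in siNT/siUPF1 and 0.0259 in siSFSWAP/siUPF1 (adjusted p 0.985), and 0.0234 in siNT and 0.025 in siSFSWAP (adjusted p 0.789). The rise is thus that of 1 listed form and not of all RPL13A transcripts. The NACA intron was spliced out in 20, 15 and 27 reads in siNT/siUPF1 and 0, 0 and 0 in siSFSWAP/siUPF1 (adjusted p 0.000278). The exon beside it had 7159, 6855 and 7696 inclusion reads in siNT/siUPF1. The change is thus that of a rare form and not of the share of all NACA transcripts that keep the intron. PRKCSH rose by 1.19 ± 0.24 (adjusted p 0.00322), and its exon passed the test without siNT/siUPF1 listed last (0.0185). The NSMF call was lost without siSFSWAP/siUPF1 listed second or last (0.0564 and 0.0839).

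The comparisons with and without siUPF1 used different libraries, and 1402 introns were tested in both. Of these, 174 fell without siUPF1 and 45 fell with it, and 36 fell in both, of the 174 and of the 45. Of the 174, 164 (94.3%) had a log2 odds ratio below 0 with siUPF1 as well, and their median was −1.77 without and −0.94 with siUPF1. The 36 include introns of AHRR, AUP1, CDK16, DDX23, HNRNPM, ISYNA1, MCAM, NOP56, NSMF, SNRPB and STUB1. Of 24 that rose without siUPF1 and 18 that rose with it, 5 rose in both, in GAS5, NSMF (the 300-bp intron), RPL13A, RPS24 and UQCRB, the last a subunit of respiratory complex III singled out after its values were seen. The GAS5 intron here (chr1:173865283-173865509) is a longer form that overlaps the one above and shares 1 of its edges. The shorter form was not called without siUPF1 (0.011 ± 0.13, adjusted p 0.979). The GAS5 rise in both comparisons is thus that of 1 listed form. The HNRNPA1 intron at chr12:54282663-54282799 rose in the first comparison and fell in the second, where 2 of 3 siSFSWAP/siUPF1 libraries were at 0.313 and 0.321 and the other 4 libraries at 1. Spearman's rho of the log2 odds ratios between the comparisons was 0.51 over the 1402 introns, which share genes and the base composition of their reads.

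**Figure D3:**
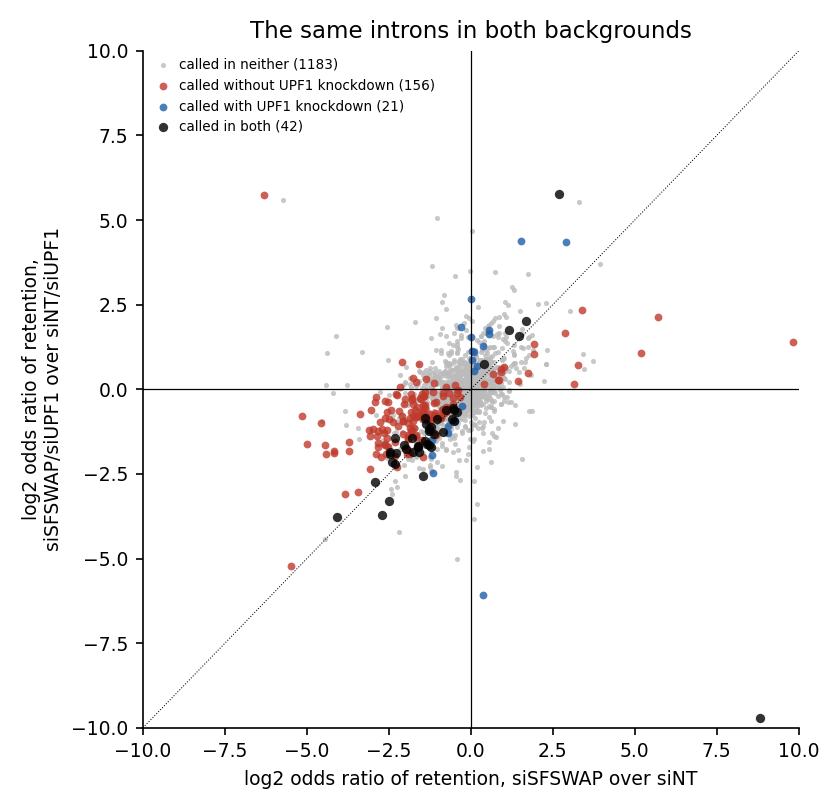
Log2 odds ratio of SFSWAP knockdown with siUPF1 (vertical) against without siUPF1 (horizontal) for the 1402 introns tested in both, coloured by where the intron was called. Of these, 1183 were called in neither comparison, 156 without siUPF1 only, 21 with siUPF1 only and 42 in both, mostly at the lower left.

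A fall that passed in 1 comparison and not in the other is not thereby different between them. For 1594 of the introns the difference itself was tested, with all 12 libraries fitted together, and none was called, with 83 (5.21%) at an unadjusted p under 0.05 against 4.77% of all retained introns (0.0291% of all were called with a log2 odds ratio higher with siUPF1, and 0% lower). With limma none was called either. The median difference was 0.23, and 0.22 over all introns. The lowest adjusted p among them was 0.412, in HMGCS1, an enzyme of sterol synthesis. Without siNT/siUPF1 listed last, 3 were called.

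UPF1 knockdown in siNT cells was compared for 1417 introns at the same coordinates in both tables. None fell and 1 rose, against 0.033% of all retained introns in each direction, and 149 (10.5%) had an unadjusted p under 0.05, against 10.1% of all. That intron, in NTMT1 (a methyltransferase of protein N termini, chr9:129634222-129634370), was spliced out in 31, 23 and 19 reads in siNT and in 0, 0 and 0 in siNT/siUPF1 (adjusted p 0.00454), so that its level went from 0.8, 0.792 and 0.868 to 1 in all 3. It was spliced out in 25, 0 and 14 reads in siSFSWAP and 0, 5 and 10 in siSFSWAP/siUPF1, with the groups overlapping. Left out 1 at a time, 2, 6 and 2 introns were called without the siNT libraries listed first, second and last, and 11 without siNT/siUPF1 listed last.

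The introns that fell had a higher median GC content than those that rose. Without siUPF1 the median GC content was 60.2% (quartiles 55.3% and 66.0%) among those that fell, 41.5% (34.2% and 57.1%) among those that rose and 53.7% among those not called. By GC content, 1.4% of 571 introns under 40% GC fell, 6.62% of 393 from 40% to 50%, 13.4% of 762 from 50% to 60% and 17.2% of 827 from 60%, while 3.15%, 2.04%, 1.05% and 0.846% rose. The median log2 odds ratio moved through 0.093, −0.041, −0.46 and −0.69 over the same bins. Introns that border no listed exon had the same order, with 0.347%, 2.4%, 3.51% and 11.4% falling. Median siNT levels were also higher at higher GC content, from 0.0393 through 0.0607 and 0.0822 to 0.0896, and introns at a higher siNT level fell more often, 3.39% of those under 0.05, 13.7% from 0.05 to 0.2, 24.8% from 0.2 to 0.5 and 14% from 0.5. The part of the level in the GC pattern was not tested. With siUPF1, 0.856%, 1.95%, 3.8% and 4.54% fell and 2.74%, 0.279%, 0.33% and 0.648% rose over the 4 bins, and the median GC content was 59.0% where the intron fell and 35.2% where it rose.

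**Figure D4:**
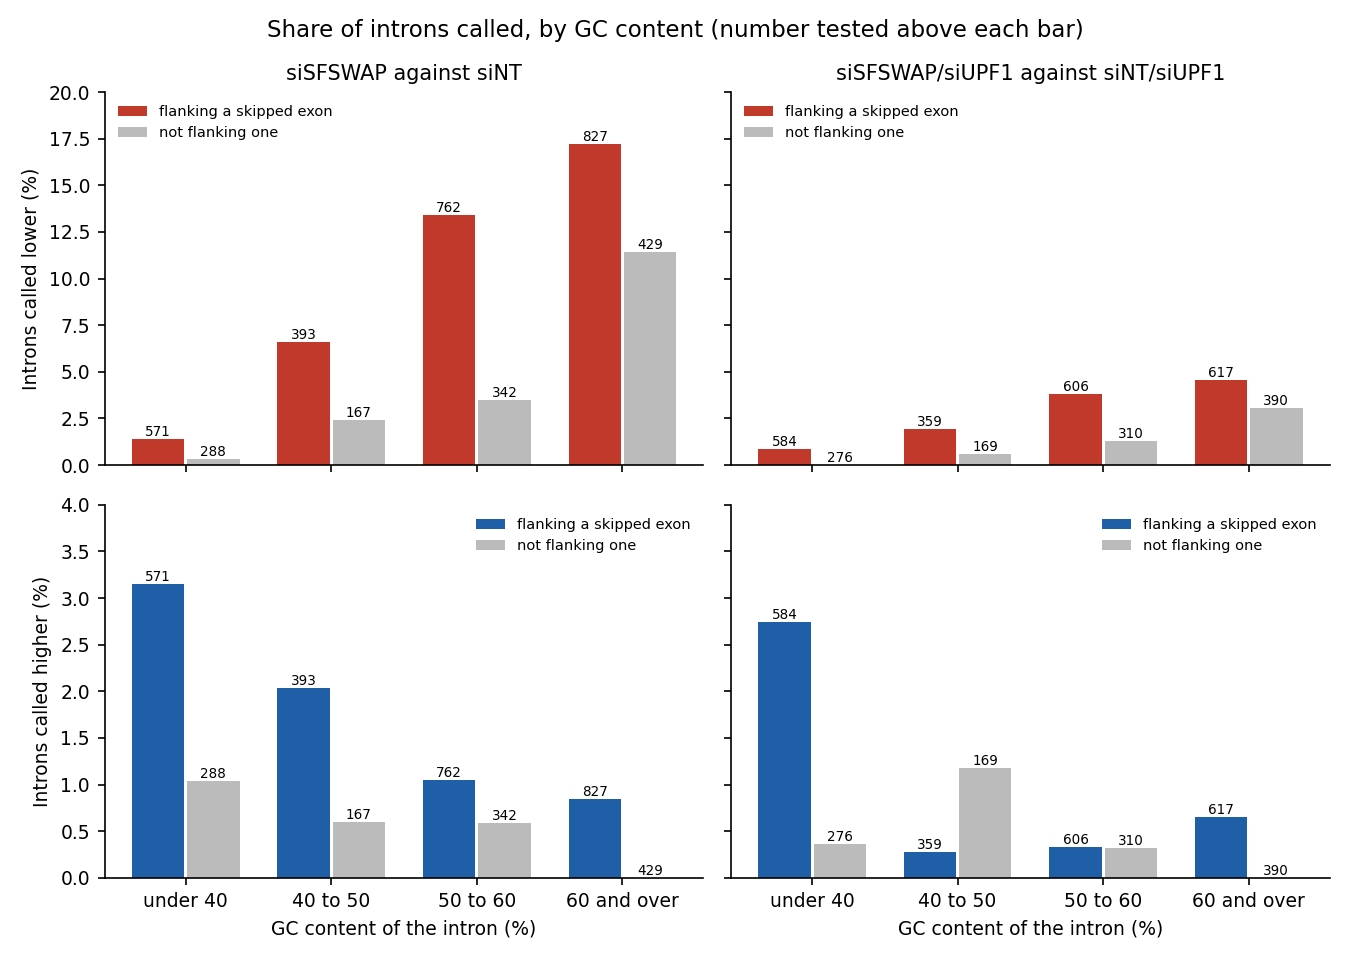
Percent of tested introns of 100 to 499 bp called lower or higher after SFSWAP knockdown, by GC content of the intron (under 40%, 40 to 50%, 50 to 60%, and 60% or more), for introns that border a listed skipped exon and for those that border none. The share that fell grew with GC content in both sets, from 1.4% to 17.2% and from 0.347% to 11.4% without siUPF1.

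Length, splice sites, annotation and small RNA genes were described for the same introns, with no test. The median length was 162 bp where the intron fell, 253 bp where it rose and 170 bp where it was not called. Nearly all, 2513 of 2553, began with GT and ended with AG, and 39 with GC and AG. The median share of pyrimidines in the 17 bases before the last 3 of the intron was 70.6% both among those that fell and among those that rose, and 76.5% among the rest. Introns of the coding region of the MANE transcript made up 85.3% of those that fell (237 of 278), 34.1% of those that rose (14 of 41) and 77.1% of the rest, and with siUPF1 84.1%, 8.7% and 74.8%. An annotated exon covered the whole intron in 56.5% of those that fell, 70.7% of those that rose and 35.2% of the rest. A small RNA gene lay inside 9 of the introns that fell (3.24%), 4 that rose (9.76%) and 34 of the rest (1.52%), and inside 4 of the 23 that rose with siUPF1 (17.4%). Those that rose without siUPF1 held SNORA64 in RPS2, SNORD32A in RPL13A, SNORD12 in ZFAS1 and SNORD49B in LRRC75A-AS1, and those with siUPF1 held SNORD27 and SNORD28 in SNHG1, SNORD32A in RPL13A and SNORD70B in NOP58. Reads of such small RNAs and of an intron cannot be told apart in these tables.

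The counts by gene family stand beside 10.9% lower and 1.61% higher among all the tested introns, and 2.91% and 1.06% with siUPF1, and a share near these is no result about a family. The introns of the cytosolic ribosomal proteins moved in both directions (members of families given with values here and not named above were chosen after their values were seen). Of 80 tested without siUPF1, 14 fell and 9 rose (median log2 odds ratio −0.11), and of 72 with siUPF1, 5 fell and 4 rose. RPL10 intron 4, which had the lowest adjusted p of these, fell from 0.00977, 0.00666 and 0.0143 to 0.00179, 0.00277 and 0.00267 (−2.08 ± 0.26, adjusted p 7.89e-07). Of 27 introns of DDX and DHX helicases, 4 fell (DDX11, DDX23, DDX41 and DHX30) and 0 rose (median −0.41), and with siUPF1 3 of 21 fell. Of 21 introns of polymerase genes with symbols that begin with POLR, POLD or POLE, 3 fell (POLD1, POLR2I and POLRMT, median −0.39), and with siUPF1 2 of 20. Other polymerase genes were not counted, such as POLG, with an intron (chr15:89327064-89327166) that fell in both comparisons. Of 27 introns of core spliceosome genes, 3 fell (SF1, SNRPB and U2AF2, median −0.063), and with siUPF1 1 of 21. HNRNPM gave the hnRNP intron with the lowest adjusted p (chr19:8465363-8465479), at levels of 0.676, 0.627 and 0.611 in siNT and 0.547, 0.557 and 0.513 in siSFSWAP (−0.56 ± 0.08, adjusted p 1.51e-05), and 0.702, 0.641 and 0.662 in siNT/siUPF1 and 0.495, 0.497 and 0.559 in siSFSWAP/siUPF1 (−0.89 ± 0.09, adjusted p 2.93e-06).

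The remaining families are given by their counts. Of 26 hnRNP introns 4 fell and 3 rose, and with siUPF1 2 of 26 fell. Of 53 introns of translation initiation factors 4 fell (in EIF2B4, EIF4A1 and EIF6) and 2 rose (EIF1 and EIF3M), and with siUPF1 1 of 46 rose (EIF4G1). Of 7 introns of SR proteins 0 were called (median 0.018), and with siUPF1 1 of 6 rose, in SRSF7, from 0.396, 0.266 and 0.578 to 0.639, 0.604 and 0.748 (1.64 ± 0.4, adjusted p 0.012). Of 17 introns of RBM genes 1 fell (RBM38), of 9 of complex I 1 fell (NDUFV1) and 1 rose (NDUFB10), and of 27 of zinc finger ZNF genes 2 fell (both in ZNF512B), with 0 of 15, 5 and 24 called with siUPF1. None of the 14 introns of mitochondrial ribosomal proteins or of the 32 of proteasome subunits was called, nor any of 10 and 28 with siUPF1.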

How the data were processed

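RNA-seq of 12 libraries in 4 groups of 3 was used as 4 event tables, retained introns and skipped exons for each SFSWAP comparison. The authors trimmed reads with cutadapt 1.9.1, aligned them with STAR 2.7 to GRCh38.p8 with RefSeq and predicted decoy exons (versions as in the submitters' processing notes), and ran rMATS with junction and exon body reads. The deposited inclusion and skipping reads are raw counts, each cell holding a group's 3 libraries, joined by commas and without replicate numbers. The side of each group in a table follows the study's methods. The deposited p-values, FDR values, mean differences and 8 columns of inclusion levels per library were not used here.

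Inclusion levels were recomputed from reads and form lengths. Events had to average 10 reads in a library, with 10 inclusion and 10 skipping reads over the libraries compared. The test of each event was two-sided, from quasi-binomial regression in R 4.3.3, with the dispersion moderated over all events of the table by limma 3.58.1 and floored at 1, an F test on the deviance and Benjamini-Hochberg adjustment over the table. The difference between UPF1 backgrounds was a Wald test in a fit of all 12 libraries. p-values rest on the spread between 3 replicates a group, with each event's dispersion drawn towards a value shared by all events. Without siUPF1 the shared value carried 23.69 degrees of freedom for retained introns and 66.73 for skipped exons. The p-values thus mostly reflect the shared value and not the spread of the event's own replicates. On simulated data, the retained intron test recovered 25% of changes of 1 and 57.6% of changes of 2 (log2 odds ratio) without siUPF1, with 2.38% of its calls false, and 18.4% and 58.6% with siUPF1, with 6.17% of its calls false. The simulated reads were drawn at the dispersion shared across events, so these shares cannot check whether sharing it holds. The changed events averaged 30 or more reads in a library and lay away from both ends of the inclusion scale. A difference of 1 would thus mostly be missed at this depth.

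The introns, gene lists and tests were chosen with earlier results of these data known. Genes were named by rule, per comparison, from pairs with both events called, an average of 30 or more reads in a library and groups apart, 1 pair per gene, which left 60 genes without and 21 with siUPF1. They are the 8 with the lowest adjusted p and a lower intron and higher exon, up to 4 of each other combination, the 4 introns with the largest difference in each direction and no called exon, and, where called or lowest, up to 4 introns for the UPF1 comparison and for the test between backgrounds. Lists are families by symbol, namely SR proteins, hnRNP, core spliceosome, RBM, DDX and DHX helicases, cytosolic and mitochondrial ribosomal proteins, complex I, initiation factors, proteasome, polymerases (POLR, POLD and POLE only) and ZNF.

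No fitted log2 odds ratio is given where a group had no read of 1 form. Exon and intron numbers and coding regions are from GENCODE 44 with its MANE transcripts, and sequences from the hg38 reference. Tables were joined in Python 3.11.15 with pandas 2.3.3 and numpy 2.4.6, and figures drawn with matplotlib 3.10.9. Alternatives were limma on log2 odds with a pseudocount of 0.5 or 1, own dispersions, no floor, 30 reads, no minimum per form, 1 event per intron or exon, calls with groups apart, unshared reads, and leaving out each library.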

Additional observations from a re-analysis of the deposited data

How the results depend on the processing

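The counts of called introns and pairs depended on the dispersion. With limma on the log2 odds (pseudocount 0.5 or 1) and with each event's own dispersion, the introns lower and higher and the pairs of either opposite kind came to 0 in both SFSWAP comparisons, except for 1 intron higher with siUPF1 under limma with either pseudocount. The cause was not tested. With 1 event per intron or exon, by construction fewer events, the pairs with a lower intron and higher exon came to 74 without and 16 with siUPF1, and those with a higher intron and lower exon to 8 and 12. With no minimum per form the latter came to 13 and 23, and the intron called for UPF1 knockdown to 0, as with own dispersions. Requiring groups apart left 8 pairs with a higher intron and lower exon without siUPF1. Leaving out 1 library gave, without siUPF1, 169 to 361 introns lower, 18 to 48 higher, and 64 to 195 and 4 to 22 pairs. With siUPF1 it gave 31 to 114 lower, 14 to 51 higher, and 16 to 88 and 19 to 53 pairs. For UPF1 knockdown it gave 1 to 11 introns, and for the difference between backgrounds 0 to 3. The WDR90 exon, not called, changed sign, from −0.18 to 0.10 and 0.16 with limma (pseudocount 0.5 and 1) and to −0.47 to 0.56 with 1 library left out (0.56 without siSFSWAP listed last). Of 519 values of named genes under alternatives with all libraries, 333 kept direction and call, 184 kept direction and lost the call and 2 changed sign. Of 428 with 1 library left out, 379 kept both, 47 lost the call, 1 gained it and 1 changed sign. Leaving out introns that enclose a listed exon, chosen after seeing the data, changed no count by over 1.5 times. No paired analysis was possible because the tables carry no replicate numbers. Introns under 10 reads per form were not tested, so low retention is seen mainly in deeply read genes.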
